A study of Mus musculus with 24 samples.

Results

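The 10 genes followed belong to the hepatic acute phase: the orosomucoids Orm1, Orm2 and Orm3, lipocalin 2 (Lcn2), haptoglobin (Hp), hemopexin (Hpx), Steap4, Itih4 and the fibrinogen chains Fgb and Fgg. They were found by name in a table of FPKM (fragments scaled by transcript length and by the number of mapped fragments), in which each name matched 1 locus that carried no other name, so that 10 of 31027 loci are described. All 10 were above 0 in all 24 libraries and were among the 10562 loci tested, those with a mean of at least 1 FPKM. The libraries were made from liver of C57BL/6J mice, with 3 libraries in each of 8 groups, after 16 weeks on a high fat diet or on chow. On the high fat diet, Jnk1Jnk2 livers came from AlbCre+ mice with the alleles Jnk1flox/flox and Jnk2flox/flox, Jnk2 livers from AlbCre+ Jnk2flox/flox mice, Jnk1 livers from AlbCre+ Jnk1flox/flox mice and control livers from AlbCre+ mice, labelled wild type, which carry the same Cre transgene. The same 4 genotypes made up the chow groups. The albumin promoter drives Cre in hepatocytes, so other liver cells keep the kinases, and in liver tissue fewer cells of a type and less RNA per cell cannot be told apart. Nothing in the labels states whether the 3 libraries of a group came from different animals, and the p-values therefore rest on a spread that may be technical.

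The acute phase response is the change in the plasma proteins that hepatocytes secrete during inflammation. Interleukin 6 acts on hepatocytes through STAT3, and interleukin 1 through NF-kB and C/EBP factors, and these cytokines raise the transcription of many acute phase genes. JNK1 and JNK2, encoded by Mapk8 and Mapk9, are stress-activated kinases that phosphorylate c-Jun, a part of the transcription factor AP-1. The orosomucoids are carriers of lipophilic molecules in plasma, Lcn2 binds bacterial siderophores and so withholds iron, Hp binds free hemoglobin, Hpx binds heme, and Steap4 is a membrane metalloreductase of iron and copper. Itih4 is a plasma protein of the inter-alpha-trypsin inhibitor family, and Fgb and Fgg encode the beta and gamma chains of the clotting protein fibrinogen.

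The 3 Orm genes lie side by side on chromosome 4, at chr4:63344566-63348162 (Orm1), chr4:63356162-63359511 (Orm3) and chr4:63362449-63365877 (Orm2) in mm10, and share part of their sequence. In GENCODE vM21 transcripts, the coding sequences of Orm1 and Orm2 were 89.9% identical (558 of 621 aligned positions), those of Orm1 and Orm3 86.0% and those of Orm2 and Orm3 87.9%. Of all runs of 50 bases in each transcript, 79.6% for Orm1, 78.2% for Orm2 and 96.4% for Orm3 occurred in no other copy, and 20.4% of those of Orm1 were shared with Orm2. The stretch below, coding bases 241 to 360 of each copy counted on the alignment from the first base of the start codon, shows how the copies differ, with capitals at the 25 of 120 positions that are not the same in all 3. Orm1 and Orm2 differed at 16 of these positions, and the longest run that all 3 copies shared was 16 bases.
Orm1: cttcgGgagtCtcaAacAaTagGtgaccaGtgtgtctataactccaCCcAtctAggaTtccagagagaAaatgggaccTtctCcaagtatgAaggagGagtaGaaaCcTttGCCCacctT
Orm2: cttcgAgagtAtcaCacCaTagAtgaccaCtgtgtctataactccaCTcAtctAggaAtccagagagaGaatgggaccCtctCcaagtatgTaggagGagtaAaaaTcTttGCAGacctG
Orm3: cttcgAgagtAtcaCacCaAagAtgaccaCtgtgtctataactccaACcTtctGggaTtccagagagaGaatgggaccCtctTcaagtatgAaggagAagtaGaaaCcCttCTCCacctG

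The promoters of Orm2, Lcn2 and Steap4 are shown because the levels of these members ranged widely between libraries. Each is the 250 bases before the gene start on the gene's own strand, from RefSeq on GRCm38.p6. That of Orm3 is not shown, because the last 89 bases of the stretch given for it lie inside the RefSeq gene. Capitals mark matches, on either strand, to TTCNNNGAA (STAT), TTNNGNAA (C/EBP) or TGANTCA (AP-1).
Orm2 (chr4:63362199-63362448, plus strand): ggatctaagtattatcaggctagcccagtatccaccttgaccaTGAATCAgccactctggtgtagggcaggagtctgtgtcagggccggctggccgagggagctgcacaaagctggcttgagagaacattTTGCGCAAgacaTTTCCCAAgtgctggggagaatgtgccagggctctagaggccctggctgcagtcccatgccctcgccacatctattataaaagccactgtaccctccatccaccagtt
Lcn2 (chr2:32387740-32387989, minus strand): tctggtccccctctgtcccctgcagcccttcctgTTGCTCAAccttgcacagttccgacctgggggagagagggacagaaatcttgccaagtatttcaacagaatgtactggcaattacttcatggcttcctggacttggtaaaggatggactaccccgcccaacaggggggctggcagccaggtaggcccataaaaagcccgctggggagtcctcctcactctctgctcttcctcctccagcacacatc
Steap4 (chr5:7960222-7960471, plus strand): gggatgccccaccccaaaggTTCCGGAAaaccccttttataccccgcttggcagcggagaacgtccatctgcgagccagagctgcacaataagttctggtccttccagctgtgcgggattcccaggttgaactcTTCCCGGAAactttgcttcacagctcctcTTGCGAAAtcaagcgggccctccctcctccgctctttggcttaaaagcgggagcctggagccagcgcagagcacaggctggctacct
Orm2 had C/EBP matches 120 and 108 bases before its start and an AP-1 match at 207. Lcn2 had 1 C/EBP match at 216. Steap4 had a STAT match at 116 and C/EBP matches at 230 and 87. Of the 32851 promoters of this length in the table, 7.02% held the STAT pattern, 36.8% the C/EBP pattern and 6.75% the AP-1 pattern. A pattern for NF-kB sites, held by 45.8% of promoters, matched 1 time in Lcn2, at 102, and 3 times in Steap4, where 1 match overlaps the C/EBP match at 230. A match is a description of these letters only.

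The labels were checked on the targeted genes. Mapk8 had 0.845 to 2.47 FPKM in the 12 libraries labelled Jnk1Jnk2 or Jnk1, against 3.38 to 5.77 FPKM in the 12 labelled Jnk2 or control. Mapk9 had 4.33 to 7.785 FPKM in the 12 labelled Jnk1Jnk2 or Jnk2, against 9.01 to 11.95 FPKM in the 12 labelled Jnk1 or control. The sum of FPKM per library was 849038 to 873399 in high fat Jnk1Jnk2 livers and 634849 to 734352 in the other 21 libraries. Relative depth was estimated from the FPKM values, with chow control replicate 1, the deepest, set to 1.0. The lowest estimate was 0.3, in high fat Jnk1Jnk2 replicate 3. In the 3 high fat Jnk1Jnk2 libraries the deviation of a locus from its mean over all libraries fell with transcript length. Spearman's rho across loci was -0.565, -0.621 and -0.561 there, against -0.253 to 0.397 in the others. Some changes in that group are therefore also given with this trend removed, and all others are as deposited. Of 7 hepatocyte markers, 2 were called higher in high fat Jnk1Jnk2 livers than in high fat control livers, Apoa1 (11480 against 5841 FPKM) and Ttr (5604 against 3603 FPKM), and 2 lower, Apob (120.4 against 404.0 FPKM) and Cps1 (101.6 against 373.8 FPKM), with a median difference of -0.23 on the log2(FPKM + 1) scale. Over all tested loci 51.2% were called in this comparison and 31.6% were lower, with a median difference of -0.07. Alb was listed at 0 in 4 libraries, and the sum of the other 6 was 17565 to 22159 FPKM in high fat Jnk1Jnk2 livers, most of it from Apoa1 and Ttr, and 11602 to 14965 FPKM in the other groups. Of these markers, Serpina1c was listed at 0 in all 3 chow Jnk1Jnk2 libraries.

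**Figure D1:**
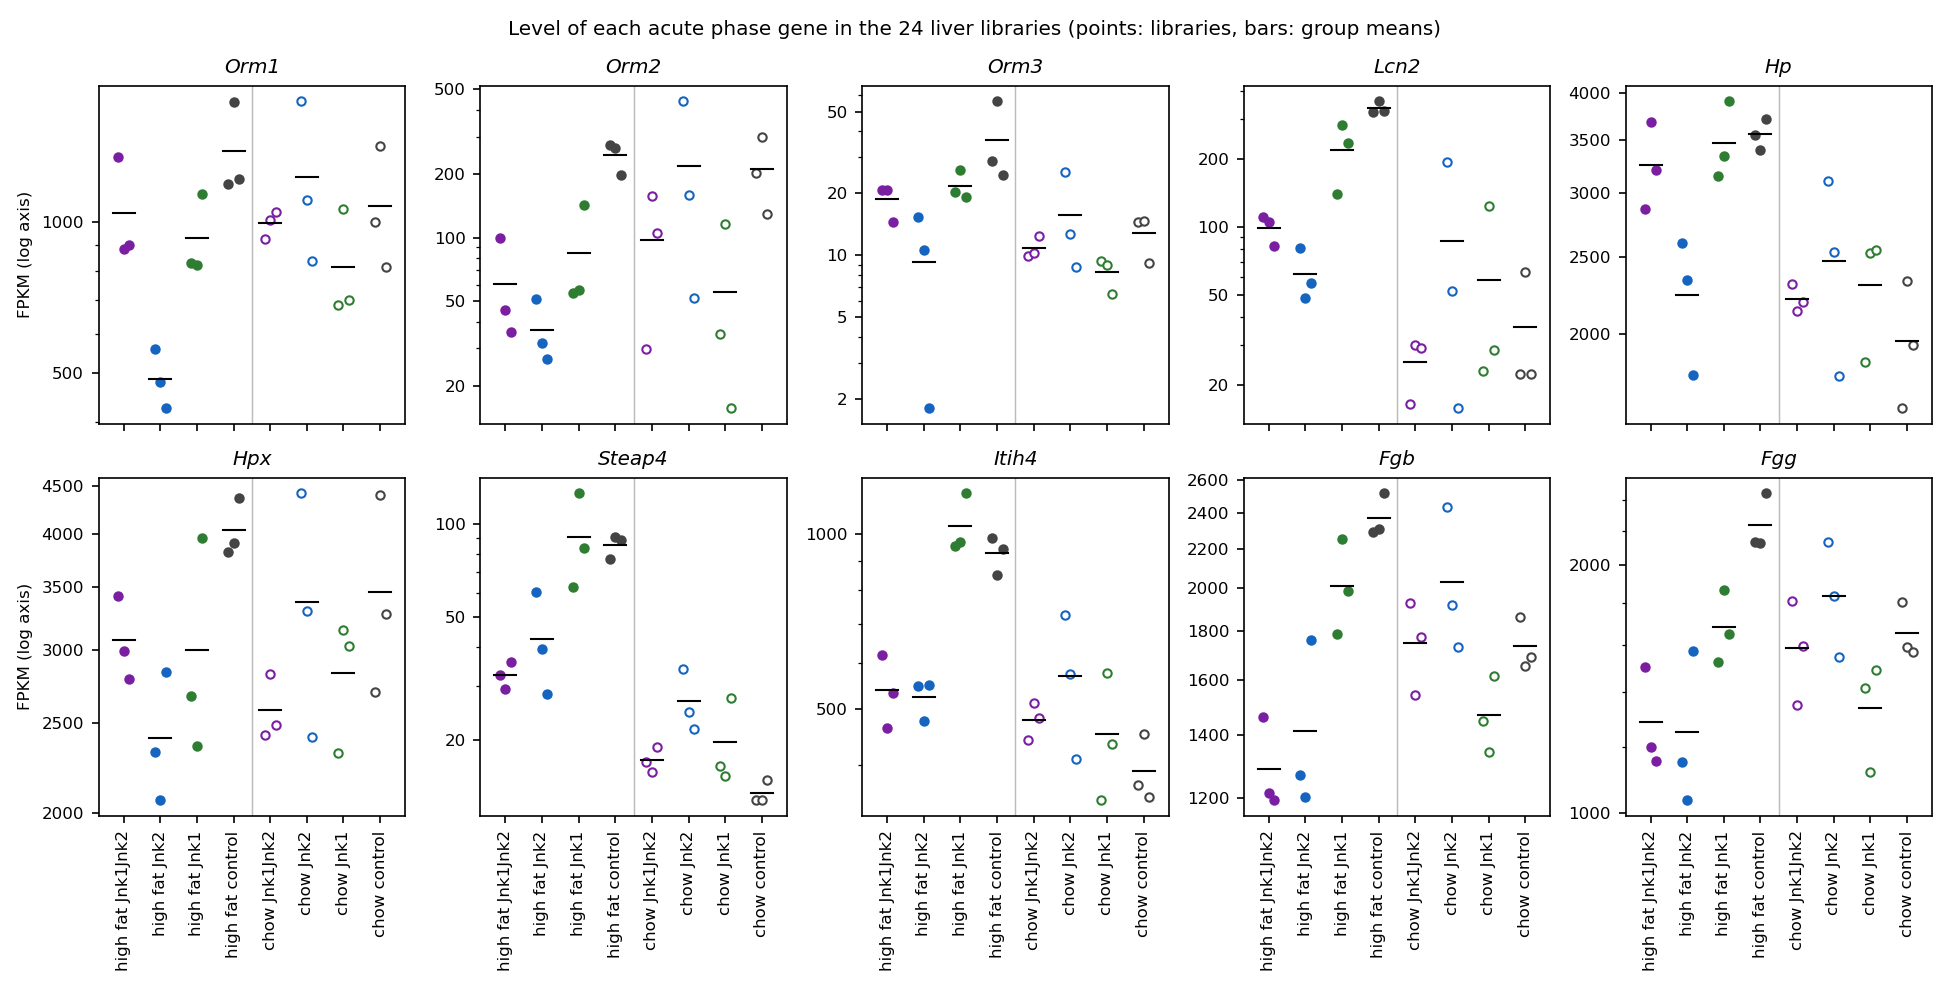
Level of each of the 10 genes in FPKM (log axis) in each library. Points are libraries, bars are group means, filled points are high fat and open points chow. Lcn2 and Steap4 stand apart most clearly between high fat control livers (322.7 to 358.9 and 77.15 to 91.0 FPKM) and chow control livers (22.4 to 63.1 and 12.8 to 14.85 FPKM), and for all 10 genes the 3 high fat Jnk2 libraries lie below the 3 high fat control libraries.

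On the high fat diet all 10 genes were lower in Jnk2 livers than in control livers, though the order of the Jnk2 libraries differed between genes. High fat Jnk2 replicate 3 was the lowest library of its group at 5 of 10 genes and the highest at 4. The 10 were chosen with earlier results of these data known, so the shares of all loci are a reference and not an independent test. In high fat Jnk2 livers against high fat control livers, 10 of 10 were lower at an adjusted p under 0.05, where 12.4% of all tested loci were called and 4.96% were lower. Their median difference of log2(FPKM + 1), the scale of all differences given here, was -0.95, beside 0.02 over all tested loci, and the libraries of both groups did not overlap at any of the 10, as at 26.4% of all loci. Fitted on the 6 libraries of these groups alone, 4 of 10 were called (Orm1, Orm2, Lcn2 and Itih4), where 1.19% of loci were called. In high fat Jnk1Jnk2 livers against high fat control livers, 6 of 10 were lower (Orm2, Lcn2, Steap4, Itih4, Fgb and Fgg), where 51.2% of loci were called and 31.6% were lower. There the groups did not overlap at 8 of 10 (all but Orm1 and Hp), as at 52.4% of all loci, and the median difference was -0.83, beside -0.07 over all loci. In high fat Jnk1 livers against high fat control livers, 0 of 10 passed the limma test, where 0.227% of loci were called. The difference was below 0 at 8 of 10 there, with a median of -0.44, beside 0.003 over all loci. At an unadjusted p under 0.05, 4 of the 10 were lower there, where 1253 of the 10562 loci had such a p in either direction. With array weights 2 of the 10 were called, where 6.78% of loci were called. The Jnk1 and control libraries did not overlap at 5 of 10 (Orm1, Orm2, Lcn2, Fgb and Fgg), as at 18.7% of all loci.

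These 3 comparisons share the high fat control libraries. JNK2 loss was therefore also set directly against JNK1 loss, a comparison added after the data were seen. There 6 of 10 were lower (Orm1, Orm3, Hp, Steap4, Itih4 and Fgb), where 14.5% of loci were called and 6.91% were lower. The median difference of the 10 was -0.95, beside 0.03 over all loci. Only 2 of the 10 were called without high fat Jnk1 replicate 2 or without high fat Jnk1 replicate 3, and Itih4 kept its call with each library left out in turn (-0.97 ± 0.19, SE, adjusted p = 0.00209). Fitted on the groups compared alone, 3 of the 10 were called, where 5.17% of loci were called, and with no filter on low values 3 of the 10, where 6.83% were called. With array weights Steap4 differed by -0.55 and Hp by -0.42, beside -1.08 and -0.64 with equal weights. Against high fat Jnk1 livers, the Jnk1Jnk2 livers were lower at 4 of 10 (Steap4, Itih4, Fgb and Fgg), where 56.6% of loci were called and 33.8% were lower. Fgg passed there narrowly (-0.39 ± 0.16, SE, adjusted p = 0.0494), a call lost with 15 of 24 libraries left out (adjusted p up to 0.165) and with size factors (0.167), while its difference was -0.66 with the length trend removed. Set against high fat Jnk2 livers, the Jnk1Jnk2 livers were higher at 3 of 10 (Orm1, Orm3 and Hp), where 48.5% of loci were called and 15.3% were higher. With the length trend removed 0 of 10 were called there, where 28.6% of loci were called.

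The high fat diet went with higher levels of part of the set in control and Jnk1 livers. In high fat control livers against chow control livers, 6 of 10 were higher (Lcn2, Steap4, Orm3, Itih4, Hp and Fgb), where 16.3% of loci were called and 10.1% were higher. In high fat Jnk1 livers against chow Jnk1 livers, 5 of 10 were higher (Lcn2, Steap4, Itih4, Hp and Fgb), where 15% of loci were called and 9.22% were higher. In high fat Jnk2 livers against chow Jnk2 livers, 4 of 10 were lower (Orm1, Orm2, Fgb and Fgg) and 0 higher, where 26% of loci were called and 6.39% were lower. In high fat Jnk1Jnk2 livers against chow Jnk1Jnk2 livers, 3 of 10 were higher (Lcn2, Steap4 and Hp) and Fgb was lower, where 56.9% of loci were called, 30.1% higher and 26.8% lower. The median differences of the 10 were 0.66 in control livers, 0.75 in Jnk1 livers, -0.49 in Jnk2 livers and 0.20 in Jnk1Jnk2 livers, while the median over all loci lay between 0.03 and 0.10. Without chow Jnk2 replicate 1, the difference by diet in Jnk2 livers was called lower at 1 of 10 (Orm1) and higher at 1 (Steap4), with a median of -0.32.

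Median-of-ratios size factors moved the median over all loci to -0.01 (0.10 as deposited) in high fat Jnk2 livers against chow Jnk2 livers and to -0.03 (-0.14 as deposited) in high fat Jnk1Jnk2 livers against high fat Jnk2 livers. Calls over the whole table then became more even. Calls in high fat Jnk1Jnk2 livers against high fat control livers were 2072 higher and 3338 lower as deposited, and 2783 higher and 2815 lower with size factors. Calls by diet in control livers were 1063 higher and 654 lower as deposited, and 917 higher and 1008 lower with size factors. Those by diet in Jnk1 livers were 974 higher and 614 lower as deposited, and 847 higher and 912 lower with size factors. In Jnk2 livers they were 2076 higher and 675 lower by diet as deposited, and 1295 higher and 1201 lower with size factors. The Jnk2 interaction had 653 positive and 352 negative calls as deposited, and 556 positive and 511 negative with size factors. Jnk1Jnk2 livers on the high fat diet had 1619 higher and 3502 lower calls against Jnk2 livers as deposited, and 2315 higher and 2593 lower with size factors. No called member changed its direction under either scaling tried, size factors or quantile normalization.

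Whether the effect of the diet differed between genotypes was tested with an interaction term, the high fat minus chow difference of a genotype less that of control livers. For Jnk2 livers it was below 0 at 10 of 10 genes and called at 8 of them, where 9.52% of loci were called and 3.33% were called below 0. Orm2 (-2.39 ± 1.03, SE, adjusted p = 0.143) and Hpx (-0.70 ± 0.31, SE, adjusted p = 0.148) were not called. The median over the 10 was -1.49, beside 0.07 over all loci. Without chow Jnk2 replicate 1 it was called at 5 of 10, with a median of -1.25. For Jnk1Jnk2 livers it was below 0 at 9 of 10 genes and called at 4 of them (Steap4, Itih4, Fgb and Fgg), where 34.9% of loci were called and 19.1% were called below 0. For Jnk1 livers it was below 0 at 8 of 10 genes and called at 0 of them, where 0% of all loci were called. The median over the 10 was -0.14 there, beside 0.000 over all loci. In limma 0 of the 10, and 545 of all loci, had an unadjusted p under 0.05.

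**Figure D2:**
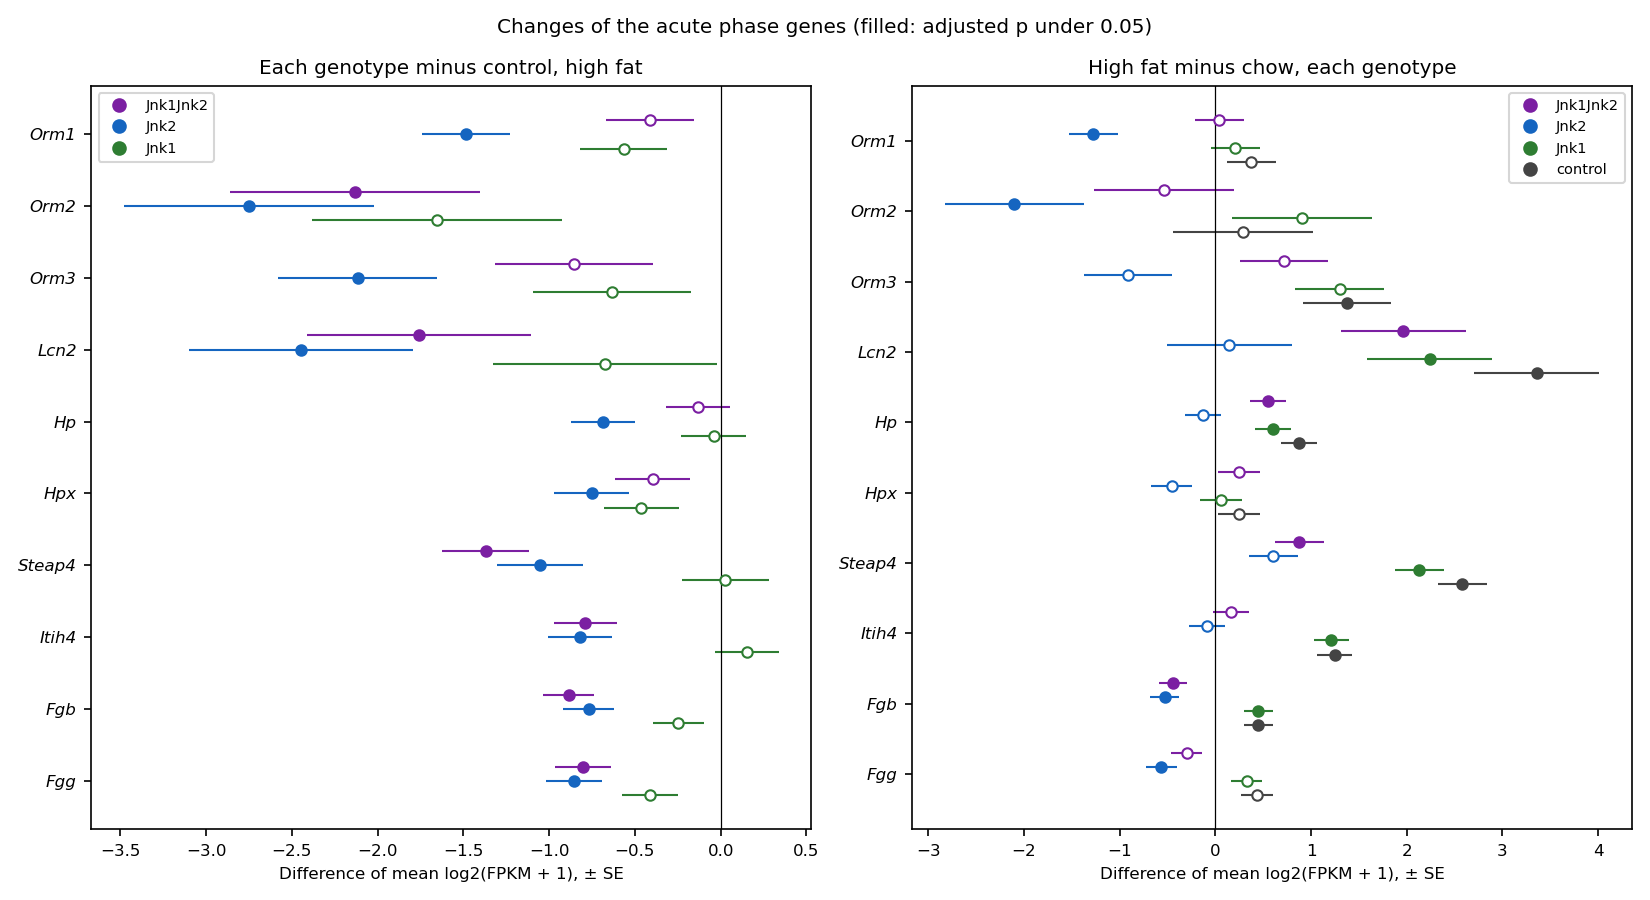
Differences of mean log2(FPKM + 1) ± SE for the 10 genes, on the left each genotype minus control on the high fat diet and on the right high fat minus chow in each genotype (3 libraries per group). Filled points passed an adjusted p of 0.05. All 10 filled Jnk2 points on the left lie below 0, from -0.69 for Hp to -2.75 for Orm2.

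On chow no difference of these genes passed the test in any knockout. In chow Jnk1Jnk2, Jnk2 and Jnk1 livers against chow control livers, 0 of 10 genes passed the limma test in each, where 0.161%, 0.454% and 2.2% of loci were called, and 0, 2 and 1 of the 10 had an unadjusted p under 0.05. With array weights, 1 was called in Jnk2 livers, where 4.41% of loci were called. Steap4 lay higher without overlap in all 9 knockout libraries, at 15.35 to 34.1 FPKM, than in the 3 control libraries, at 12.8 to 14.85 FPKM. Its difference was 0.33 in Jnk1Jnk2 livers, 0.92 in Jnk2 livers and 0.48 in Jnk1 livers, each ± 0.25 (SE), with adjusted p of 0.615, 0.112 and 0.419. Groups did not overlap at 24.2% of all loci for Jnk1Jnk2 and for Jnk2 and at 19.4% for Jnk1.

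Levels on chow varied strongly inside groups. Chow Jnk2 replicate 1 was the highest library of its group at 10 of 10 genes and chow Jnk2 replicate 3 the lowest at 10 of 10. The same replicate 1 had 149.0 FPKM over 13 neutrophil markers, against 22.3 and 23.5 FPKM in the other libraries of its group. Whether this has a part in the levels of that library was not tested. Differences whose call it decides, or that moved by over 1.5 times without it, are also given without it.

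Orm1 carried most of the orosomucoid signal. Its 3 libraries had 1348, 884.7 and 899.5 FPKM in high fat Jnk1Jnk2 livers, 558.2, 481.0 and 426.0 FPKM in high fat Jnk2 livers and 829.6, 823.5 and 1140 FPKM in high fat Jnk1 livers, against 1191, 1739 and 1221 FPKM in high fat control livers. High fat Jnk2 livers were the lowest of all 8 groups, below every library of every other group. Orm1 fell by 1.49 ± 0.26 (SE, adjusted p = 0.000906) in high fat Jnk2 livers against high fat control livers, and its call held under every alternative tried. On chow it had 924.5, 1012 and 1049 FPKM in Jnk1Jnk2 livers, 1742, 1109 and 838.0 FPKM in Jnk2 livers and 683.7, 1061 and 699.4 FPKM in Jnk1 livers, against 1002, 1418 and 814.7 FPKM in control livers. These chow groups overlapped. By diet the difference in Jnk2 livers was -1.27 ± 0.26 (SE, adjusted p = 0.00153), and -0.99 without chow Jnk2 replicate 1. In Jnk1Jnk2 livers the difference from control on high fat was -0.41 ± 0.26 (SE, adjusted p = 0.186) as deposited and -0.90 with the length trend removed, which passed the test.

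Orm2 varied over a 28.1-fold range, the lowest library at 15.65 FPKM (chow Jnk1 replicate 3) and the highest at 439.6 FPKM (chow Jnk2 replicate 1). In high fat livers it had 99.1, 45.6 and 35.8 FPKM in Jnk1Jnk2 livers, 51.5, 31.7 and 26.7 FPKM in Jnk2 livers and 55.0, 56.45 and 142.8 FPKM in Jnk1 livers, against 273.4, 263.5 and 198.2 FPKM in control livers. All 9 knockout libraries lay below the 3 control libraries. Orm2 fell by 2.75 ± 0.73 in Jnk2 livers (SE, adjusted p = 0.018) and fell by 2.13 ± 0.73 in Jnk1Jnk2 livers (SE, adjusted p = 0.0199), and in Jnk1 livers the difference was -1.66 ± 0.73 (SE, adjusted p = 0.375). The call in Jnk2 livers was lost without Jnk2 replicate 2 (adjusted p = 0.0506), Jnk2 replicate 3 (0.0527), control replicate 1 (0.0571) or control replicate 2 (0.0566), all of the high fat diet, while the difference stayed between -3.02 and -2.56. The call in Jnk1Jnk2 livers was lost without Jnk1Jnk2 replicate 2 (adjusted p = 0.0625), Jnk1Jnk2 replicate 3 (0.0748) or control replicate 1 (0.0573). On chow it had 29.9, 158.0 and 105.2 FPKM in Jnk1Jnk2 livers, 439.6, 159.0 and 51.8 FPKM in Jnk2 livers and 34.95, 116.3 and 15.65 FPKM in Jnk1 livers, against 200.8, 299.2 and 129.5 FPKM in control livers. Chow Jnk1 libraries lay below chow control without overlap, with a difference of -2.27 ± 0.73 (SE, adjusted p = 0.122). By diet Orm2 fell in Jnk2 livers, with a difference of -2.10 ± 0.73 (SE, adjusted p = 0.0397). This call was lost without chow Jnk2 replicate 1 (-1.34, adjusted p = 0.207), chow Jnk2 replicate 2 (0.0876) or high fat Jnk2 replicate 1 (0.0571), 2 (0.0961) or 3 (0.0935).

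Orm3 was the copy with the lowest level. Its levels on the high fat diet were 20.85, 20.75 and 14.5 FPKM in Jnk1Jnk2 livers, 15.4, 10.6 and 1.805 FPKM in Jnk2 livers and 20.4, 26.1 and 19.1 FPKM in Jnk1 livers, against 28.8, 56.05 and 24.6 FPKM in control livers. Jnk2 replicate 3 stood far below the other libraries. Orm3 fell by 2.12 ± 0.46 (SE, adjusted p = 0.00536) in high fat Jnk2 livers against high fat control livers, and by 1.35 without Jnk2 replicate 3, where the call held (adjusted p = 0.0184). With array weights the difference of Orm3 was -1.25, with a pseudocount of 10 it was -1.28, and on the groups compared alone its adjusted p was 0.166. In chow livers it ranged from 6.52 to 25.5 FPKM, and chow control had 14.6, 14.6 and 9.16 FPKM. In high fat control livers against chow control livers Orm3 rose by 1.38 ± 0.46 (SE, adjusted p = 0.0475), a call that was lost with 18 of the 24 libraries left out (adjusted p up to 0.202, without high fat control replicate 2). Against high fat Jnk2 livers, Orm3 in high fat Jnk1Jnk2 livers was higher by 1.26 ± 0.46 (SE, adjusted p = 0.0302), and by 0.50 without high fat Jnk2 replicate 3 (adjusted p = 0.263). This call was also lost without high fat Jnk1Jnk2 replicate 1 (0.0762) or 2 (0.0859). Against high fat Jnk1 livers, Orm3 in high fat Jnk2 livers differed by -1.48 ± 0.46 (SE, adjusted p = 0.0374), and by -0.72 without high fat Jnk2 replicate 3 (adjusted p = 0.19).

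The mix of copies differed between groups as well. Orm1 made up 78.9% to 96.9% of the summed Orm FPKM of a library. The Orm2 share was 5.11% ± 1.51 in high fat Jnk1Jnk2 livers, 6.72% ± 1.32 in high fat Jnk2 livers and 7.76% ± 2.78 in high fat Jnk1 livers, against 14.9% ± 2.95 in high fat control livers (SD, n = 3 each). All 9 knockout libraries, at 3.77% to 11%, lay below the 3 control libraries, at 12.8% to 18.3%. On chow the Orm2 share was 8.50% ± 5.16 in Jnk1Jnk2 livers, 12.7% ± 7.08 in Jnk2 livers and 5.59% ± 3.88 in Jnk1 livers, against 15.8% ± 1.94 in control livers (SD, n = 3 each). No test was made of these shares, which also move with how reads common to the copies were divided. With the 3 copies summed the difference was -1.63 ± 0.29 in high fat Jnk2 livers (SE, adjusted p = 0.00112) and -0.58 ± 0.29 in high fat Jnk1Jnk2 livers (SE, adjusted p = 0.0997), both against high fat control.

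**Figure D3:**
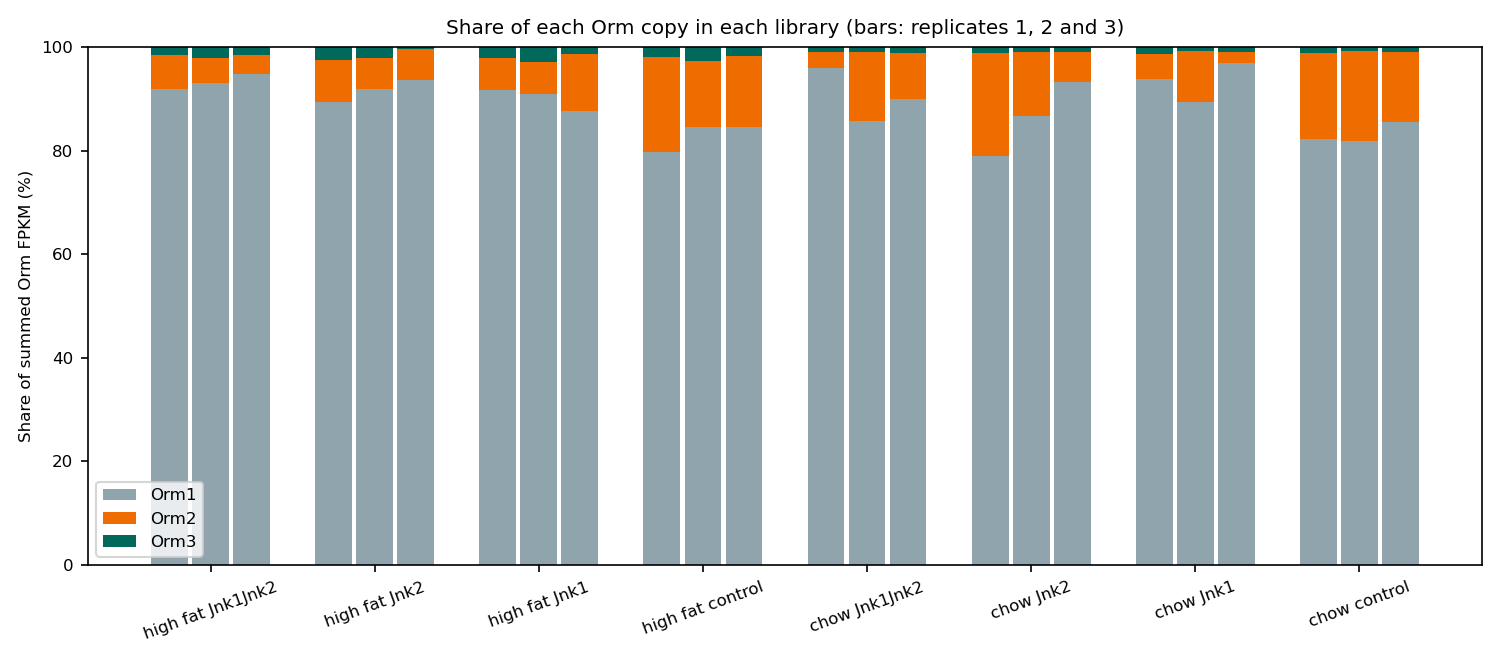
Share of each Orm copy in the summed Orm FPKM of each library (bars are replicates 1, 2 and 3 of each group). On the high fat diet the Orm2 share is 12.8% to 18.3% in control libraries and 3.77% to 11% in the knockout libraries.

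Lcn2 (chr2:32384637-32387739) had the largest rise with diet in control livers. Its levels on the high fat diet were 110.3, 104.8 and 82.1 FPKM in Jnk1Jnk2 livers, 80.85, 48.8 and 56.8 FPKM in Jnk2 livers and 139.6, 283.1 and 233.9 FPKM in Jnk1 livers, against 322.7, 358.9 and 325.6 FPKM in control livers. None of the 3 knockout groups overlapped the control group. On chow it had 16.45, 30.3 and 29.3 FPKM in Jnk1Jnk2 livers, 193.2, 52.1 and 15.8 FPKM in Jnk2 livers and 23.2, 123.9 and 28.5 FPKM in Jnk1 livers, against 22.4, 63.1 and 22.5 FPKM in control livers. The chow groups overlapped, and a high library stood in both the Jnk2 and the Jnk1 group. With diet Lcn2 rose by 3.36 ± 0.65 in control livers (SE, adjusted p = 0.00195), and the call held with every library left out. It rose by 2.24 ± 0.65 in Jnk1 livers (SE, adjusted p = 0.0259) and by 1.96 ± 0.65 in Jnk1Jnk2 livers (SE, adjusted p = 0.0153), and in Jnk2 livers the difference was 0.15 ± 0.65 (SE, adjusted p = 0.899). Without chow Jnk2 replicate 1, the library with 193.2 FPKM, the difference in Jnk2 livers was 1.05 (adjusted p = 0.216), and the interaction of diet with Jnk2 was -2.31 (adjusted p = 0.0758), beside -3.21 with it. The call in Jnk1 livers was lost without chow Jnk1 replicate 1 (0.123) or 3 (0.0975) or high fat Jnk1 replicate 2 (0.0883) or 3 (0.074), and that in Jnk1Jnk2 livers without chow Jnk1Jnk2 replicate 1 (0.0622) and with the length trend removed (0.0852).

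Within the high fat diet Lcn2 fell by 2.45 ± 0.65 in Jnk2 livers (SE, adjusted p = 0.0188) and fell by 1.76 ± 0.65 in Jnk1Jnk2 livers (SE, adjusted p = 0.0306), each against control, and its difference in Jnk1 livers was -0.67 ± 0.65 (SE, adjusted p = 0.749). The adjusted p in Jnk2 livers was 0.0596 without high fat Jnk2 replicate 2 and 0.0583 without high fat control replicate 2. In Jnk1Jnk2 livers the call of Lcn2 was lost without high fat Jnk1Jnk2 replicate 2 (0.0621) or 3 (0.0806) or high fat control replicate 1 (0.0637), 2 (0.0663) or 3 (0.0614), while the difference stayed between -1.84 and -1.63. Ordered by mean, high fat control stood above high fat Jnk1, and high fat Jnk1 above high fat Jnk1Jnk2, each without overlap, and from high fat Jnk1Jnk2 downward each group overlapped the next.

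Neutrophils also make Lcn2, so markers of neutrophils were read beside it. Of 14 markers 13 were found by name, 4 passed the filter for testing, and none was listed at 0 in all 3 libraries of a group. Their sum was 53.9 to 64.3 FPKM in high fat Jnk1Jnk2 livers, 18.2 to 27.1 FPKM in high fat Jnk2 livers and 58.2 to 213.9 FPKM in high fat Jnk1 livers, against 31.0 to 99.0 FPKM in high fat control livers. In chow livers it was 14.2 to 25.9 FPKM for Jnk1Jnk2, 22.3 to 149.0 FPKM for Jnk2 and 13.7 to 27.0 FPKM for Jnk1, against 19.2 to 30.6 FPKM for control. S100a8 and S100a9, calcium-binding proteins abundant in neutrophils, made up most of these sums, the granule gene Mpo had at most 3.615 FPKM, and 5 to 11 of the 13 markers averaged under 1 FPKM in a group. Against high fat control livers, 1 of the 4 tested markers was called higher in Jnk1Jnk2 livers (Retnlg, 51.2% of loci called). In high fat Jnk2 and Jnk1 livers 0 of the 4 were called (12.4% and 0.227%). S100a8 and S100a9 were lower in high fat Jnk2 livers than in high fat Jnk1 livers (14.5%). By diet S100a8 and S100a9 were higher in Jnk1 livers (15%) and S100a9 and Retnlg in Jnk1Jnk2 livers (56.9%). In control and Jnk2 livers 0 were called by diet (16.3% and 26%). The part of neutrophils in the levels of Lcn2 was not tested.

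**Figure D4:**
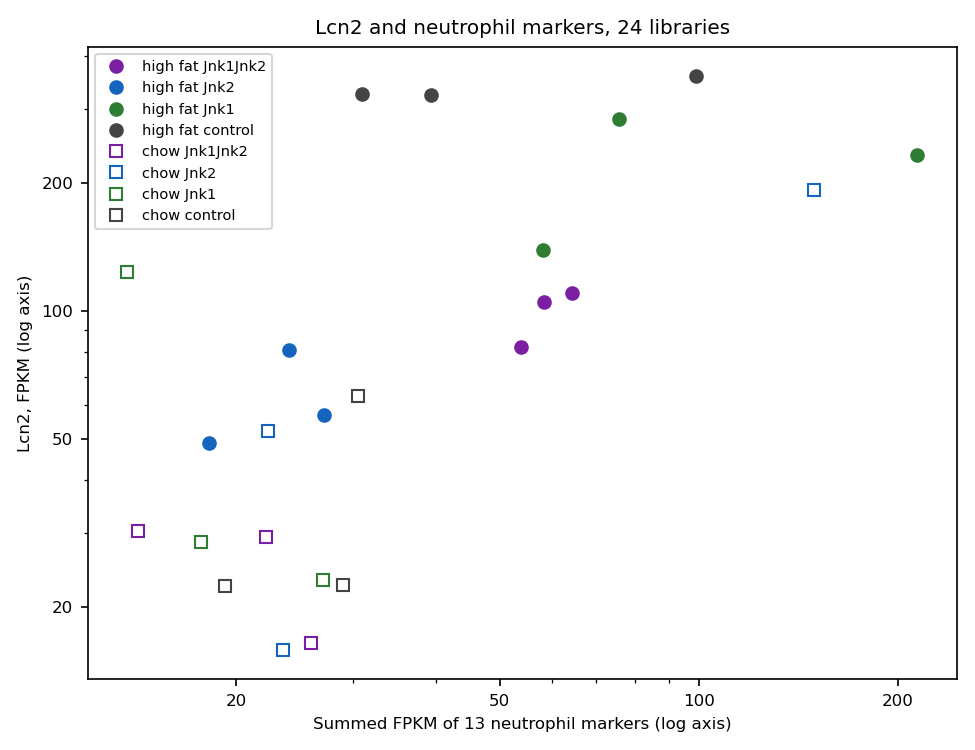
Lcn2 (FPKM, log axis) against the summed FPKM of 13 neutrophil markers (log axis) in the 24 libraries, with circles for high fat and squares for chow. The 3 high fat control libraries have the highest Lcn2, 322.7 to 358.9 FPKM, at marker sums of 31.0 to 99.0 FPKM, and the library with the highest marker sum, 213.9 FPKM, is high fat Jnk1 replicate 3.

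Steap4 (chr5:7960472-7982213) had higher mean levels on the high fat diet in all 4 genotypes. The high fat levels were 32.6, 29.4 and 35.7 FPKM in Jnk1Jnk2 livers, 60.3, 39.4 and 28.2 FPKM in Jnk2 livers and 62.7, 125.8 and 83.8 FPKM in Jnk1 livers, against 77.15, 91.0 and 88.8 FPKM in control livers. In chow control livers it had 12.8, 12.8 and 14.85 FPKM. Jnk1Jnk2 and Jnk2 libraries lay below all high fat control libraries and above all chow control libraries. With diet Steap4 rose by 2.58 ± 0.25 in control livers (SE, adjusted p = 4.45e-06), by 2.13 ± 0.25 in Jnk1 livers (SE, adjusted p = 2.33e-05) and by 0.88 ± 0.25 in Jnk1Jnk2 livers (SE, adjusted p = 0.00615). The calls of Steap4 by diet held under all alternatives tried. In Jnk2 livers its difference by diet was 0.61 ± 0.25 (SE, adjusted p = 0.0831), and it passed without chow Jnk2 replicate 1 (0.79, adjusted p = 0.0488), without high fat Jnk2 replicate 3 (0.86, adjusted p = 0.0178) and with array weights (0.94, adjusted p = 0.00303). The interaction of diet with genotype was -1.97 ± 0.36 for Jnk2 (SE, adjusted p = 0.00366) and -1.70 ± 0.36 for Jnk1Jnk2 (SE, adjusted p = 0.00159). Compared within that diet, Steap4 fell by 1.37 ± 0.25 in Jnk1Jnk2 livers (SE, adjusted p = 0.000199) and by 1.05 ± 0.25 in Jnk2 livers (SE, adjusted p = 0.00985) against control. Without high fat Jnk2 replicate 3, the lowest of its group, the difference in Jnk2 livers was -0.80 (adjusted p = 0.051), and with array weights it was -0.68. Fitted on the groups compared alone, Steap4 had an adjusted p of 0.107 there.

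Hp (chr8:109575128-109579172) and Hpx (chr7:105591611-105600116) ranged over 2.42-fold and 2.14-fold between the lowest and the highest of the 24 libraries. High fat levels of Hp were 2872, 3687 and 3213 FPKM in Jnk1Jnk2 livers, 2599, 2337 and 1777 FPKM in Jnk2 livers and 3151, 3338 and 3910 FPKM in Jnk1 livers, against 3553, 3397 and 3714 FPKM in control livers. Hpx had 3423, 2993 and 2790 FPKM in Jnk1Jnk2 livers, 2326, 2064 and 2840 FPKM in Jnk2 livers and 2671, 2361 and 3962 FPKM in Jnk1 livers, against 3825, 3904 and 4373 FPKM in control livers. Only the Jnk2 group lay below control without overlap at both genes. Hp fell there by 0.69 ± 0.19 (SE, adjusted p = 0.0214) and Hpx by 0.75 ± 0.22 (SE, adjusted p = 0.0282). The call of Hp was lost without high fat Jnk2 replicate 3 (0.0894), high fat control replicate 1 (0.0581) or 3 (0.0515), and that of Hpx without high fat Jnk2 replicate 1 (0.0726) or 2 (0.101) or high fat control replicate 1 (0.0582), 2 (0.0643) or 3 (0.0697). With quantile normalization neither passed (0.0689 for Hp and 0.0719 for Hpx), nor did either pass in the fit on these groups alone (0.142 for Hp and 0.111 for Hpx). By diet Hp rose by 0.87 ± 0.19 in control livers (SE, adjusted p = 0.00397), where chow control had 1616, 2334 and 1937 FPKM, and that call held with every library left out. It rose by 0.60 ± 0.19 in Jnk1 livers (SE, adjusted p = 0.0366), a call lost without chow Jnk1 replicate 1 (0.18) or high fat Jnk1 replicate 1 (0.0584), 2 (0.0721) or 3 (0.139). The rise of Hp by 0.55 ± 0.19 in Jnk1Jnk2 livers (SE, adjusted p = 0.0177) became 0.03 with the length trend removed (adjusted p = 0.904) and was lost without chow Jnk1Jnk2 replicate 2 (0.0502) or high fat Jnk1Jnk2 replicate 2 (0.0808). Hpx was not called by diet in any genotype, with differences of -0.46 to 0.25. The lowest of these, in Jnk2 livers, was -0.24 without chow Jnk2 replicate 1, and it passed without chow Jnk2 replicate 3 (-0.68, adjusted p = 0.0443).

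Itih4 (chr14:30886492-30901983) was lower in Jnk1Jnk2 and Jnk2 livers than in Jnk1 and control livers of the high fat diet. It had 619.1, 462.0 and 532.7 FPKM in Jnk1Jnk2 livers, 547.9, 476.1 and 548.6 FPKM in Jnk2 livers and 954.2, 967.8 and 1175 FPKM in Jnk1 livers, against 983.6, 850.1 and 943.3 FPKM in control livers. Chow control livers had 368.7, 451.9 and 351.8 FPKM. No Jnk1Jnk2 or Jnk2 library reached the lowest Jnk1 or control library of the same diet. Itih4 fell by 0.79 ± 0.19 in Jnk1Jnk2 livers (SE, adjusted p = 0.0016) and by 0.82 ± 0.19 in Jnk2 livers (SE, adjusted p = 0.00664) against control, and both calls held under all alternatives. With diet it rose by 1.25 ± 0.19 in control livers (SE, adjusted p = 0.000202) and by 1.21 ± 0.19 in Jnk1 livers (SE, adjusted p = 0.000297), and its differences in Jnk1Jnk2 livers, 0.16 ± 0.19, and in Jnk2 livers, -0.09 ± 0.19 (SE), did not pass (adjusted p = 0.474 and 0.775). Without chow Jnk2 replicate 1 the difference in Jnk2 livers was 0.11 (adjusted p = 0.723). The interaction of diet with genotype was -1.33 ± 0.26 for Jnk2 (SE, adjusted p = 0.00581) and -1.09 ± 0.26 for Jnk1Jnk2 (SE, adjusted p = 0.00402).

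Fgb (chr3:83042305-83049790) and Fgg (chr3:83007896-83015049), near each other on chromosome 3, moved together. High fat levels of Fgb were 1461, 1213 and 1193 FPKM in Jnk1Jnk2 livers, 1269, 1203 and 1761 FPKM in Jnk2 livers and 1790, 2253 and 1985 FPKM in Jnk1 livers, against 2293, 2310 and 2519 FPKM in control livers. Fgg had 1505, 1202 and 1154 FPKM in Jnk1Jnk2 livers, 1151, 1035 and 1572 FPKM in Jnk2 livers and 1525, 1866 and 1649 FPKM in Jnk1 livers, against 2134, 2130 and 2445 FPKM in control livers. All 9 knockout libraries lay below the control libraries at both genes. Fgb fell by 0.89 ± 0.15 in Jnk1Jnk2 livers (SE, adjusted p = 8.18e-05) and by 0.77 ± 0.15 in Jnk2 livers (SE, adjusted p = 0.0023), and Fgg fell by 0.80 ± 0.16 in Jnk1Jnk2 livers (SE, adjusted p = 0.000492) and fell by 0.86 ± 0.16 in Jnk2 livers (SE, adjusted p = 0.00219). These 4 calls held with every library left out, and on the groups compared alone those in Jnk2 livers were lost (0.107 for Fgb and 0.0971 for Fgg). In Jnk1 livers Fgb differed by -0.25 ± 0.15 (SE, adjusted p = 0.544) and Fgg by -0.41 ± 0.16 (SE, adjusted p = 0.305). The ratio of Fgg to Fgb kept within 0.828 to 1.03 over the 24 libraries, with a median of 0.923. Inside this range it differed between high fat groups. It was 0.967 to 1.03 in Jnk1Jnk2, 0.86 to 0.907 in Jnk2 and 0.828 to 0.852 in Jnk1 livers, against 0.922 to 0.971 in control livers. The ratio of Fga, the third fibrinogen chain, to Fgb kept within 0.5 to 0.666. These ratios were not tested.

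By diet Fgb and Fgg differed in sign between genotypes, and of these only Fgb was called in both directions. In chow livers Fgb had 1930, 1543 and 1774 FPKM in Jnk1Jnk2, 2434, 1920 and 1734 FPKM in Jnk2 and 1446, 1341 and 1614 FPKM in Jnk1, against 1865, 1654 and 1692 FPKM in control. With the high fat diet Fgb rose by 0.45 ± 0.15 in control livers (SE, adjusted p = 0.0438) and in Jnk1 livers (SE, adjusted p = 0.0456), and fell by 0.53 ± 0.15 in Jnk2 livers (SE, adjusted p = 0.0134) and by 0.44 ± 0.15 in Jnk1Jnk2 livers (SE, adjusted p = 0.0166). Fgg fell by 0.56 ± 0.16 in Jnk2 livers (SE, adjusted p = 0.0167). In control livers Fgg differed by 0.43 ± 0.16 (SE, adjusted p = 0.0767) and in Jnk1 livers by 0.33 ± 0.16 (SE, adjusted p = 0.187). In Jnk1Jnk2 livers its difference was -0.30 ± 0.16 (SE, adjusted p = 0.124). The rises of Fgb were lost with 10 of 24 libraries left out in control livers (adjusted p up to 0.125, without chow control replicate 2) and with 13 of 24 in Jnk1 livers (up to 0.166, without high fat Jnk1 replicate 2). In Jnk2 livers, leaving out chow Jnk2 replicate 1, high fat Jnk2 replicate 1 or high fat Jnk2 replicate 2 gave adjusted p = 0.0783, 0.0641 and 0.0702 for Fgb and 0.0809, 0.0667 and 0.0881 for Fgg. The differences without chow Jnk2 replicate 1 were -0.39 for Fgb and -0.45 for Fgg. With quantile normalization Fgg differed by -0.37 (adjusted p = 0.0857) in Jnk2 livers, and Fgb rose by 0.68 in Jnk1 livers. In Jnk1Jnk2 livers the fall of Fgb was lost without chow Jnk1Jnk2 replicate 1 (0.0723) or high fat Jnk1Jnk2 replicate 2 (0.0593) or 3 (0.0608). The interaction with diet was -0.98 ± 0.21 (SE, adjusted p = 0.0089) for Fgb and -0.996 ± 0.232 (SE, adjusted p = 0.0132) for Fgg in Jnk2 livers, and -0.89 ± 0.21 (SE, adjusted p = 0.00341) and -0.73 ± 0.23 (SE, adjusted p = 0.0193) in Jnk1Jnk2 livers.

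The changes in high fat Jnk1Jnk2 livers were also read with the length trend removed. This step shifts each locus by its transcript length, so the directions of the shifts below follow from the trend itself. With the length trend removed, all 10 genes were lower than in high fat control livers at an adjusted p under 0.05, where 36.7% of the 10204 loci with a length were called. The 4 genes that gained a call have transcripts of 773 to 1499 bases and had differences of -0.90 for Orm1, -1.34 for Orm3, -0.47 for Hp and -0.69 for Hpx, beside -0.41, -0.85, -0.13 and -0.40 as deposited. Steap4, Itih4 and Fgb, with transcripts of 3155 to 3810 bases, moved the other way, to -1.30, -0.65 and -0.70, beside -1.37, -0.79 and -0.89 as deposited. For high fat Jnk2 livers the same step left all 10 called, where 13.6% of loci were called. Whether the trend arose in the livers or in the libraries was not tested.

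**Figure D5:**
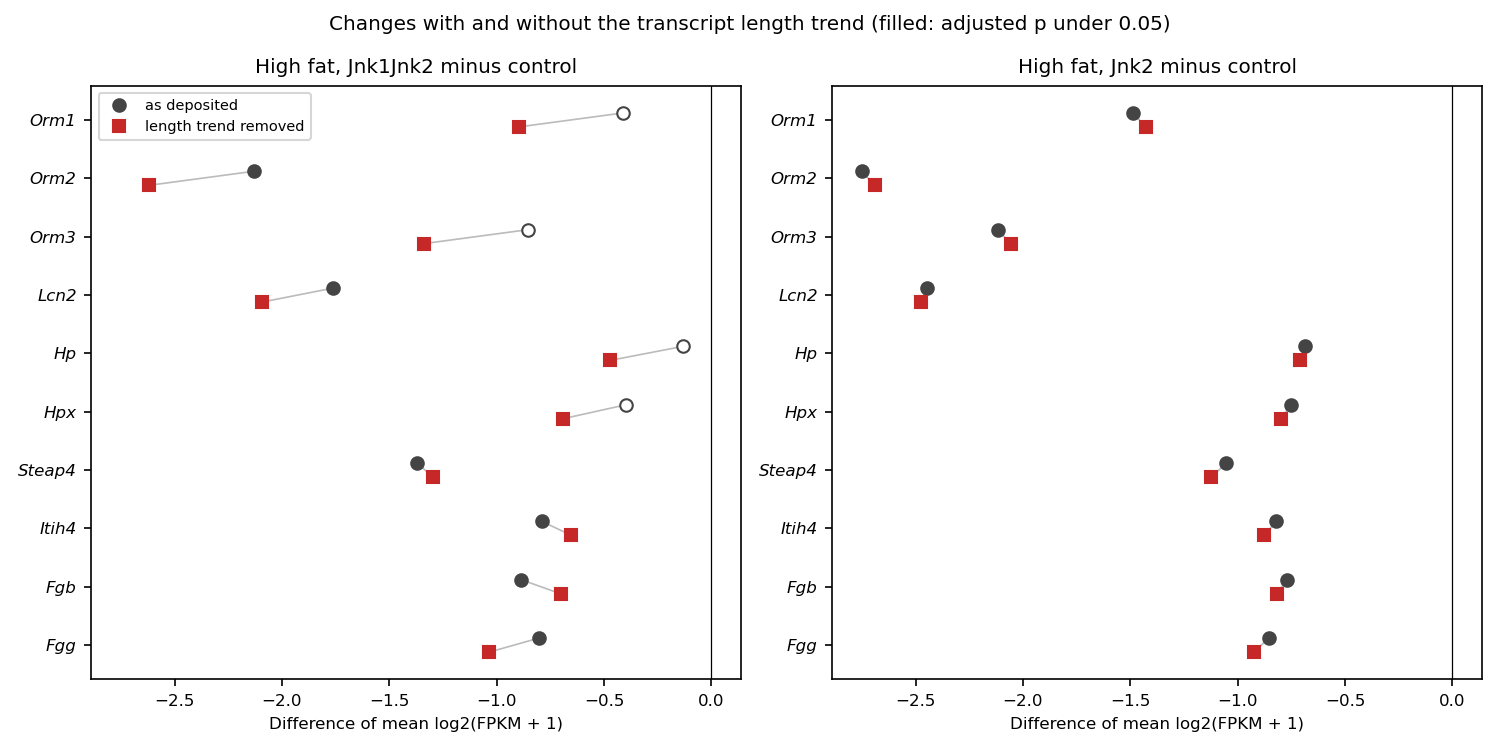
Differences of mean log2(FPKM + 1) from high fat control livers as deposited (circles) and with the trend on transcript length removed (squares), in Jnk1Jnk2 livers on the left and Jnk2 livers on the right. Filled symbols passed an adjusted p of 0.05. Orm1, Orm3, Hp and Hpx are open as deposited and filled after removal in Jnk1Jnk2 livers.

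Other genes of the acute phase were read from a list of 33 proteins that rise in inflammation, 32 of which were tested. This list and the others used here were also chosen with earlier results of these data known. Against high fat control livers, Jnk2 livers had 14 of them lower and 3 higher, where 12.4% of all loci were called and 4.96% were lower, with a median difference of -0.61, beside 0.02 over all loci. The 4 largest called changes were those of Saa1, an acute phase apolipoprotein, with 132.5 FPKM in Jnk2 livers against 1439 FPKM in control livers (-3.50 ± 0.81, SE, adjusted p = 0.00779), the metallothionein Mt2 with 96.4 against 450.9 FPKM (-2.03 ± 0.50, SE, adjusted p = 0.0111), the pentraxin Apcs with 54.6 against 185.7 FPKM (-1.76 ± 0.27, SE, adjusted p = 0.000323) and Mt1 with 246.6 against 722.2 FPKM (-1.43 ± 0.37, SE, adjusted p = 0.015). Saa1 and Apcs kept their calls with every library left out, while Mt2 lost its call without high fat Jnk2 replicate 2 (0.0553) or high fat control replicate 3 (0.0541), and Mt1 without the same libraries (0.067 and 0.0702). Jnk1Jnk2 livers had 10 of 32 lower and 5 higher, where 31.6% of all loci were lower and 51.2% were called, so these counts were near the background. The median was -0.23, beside -0.07 over all loci. The complement protein C3 had 467.1 against 1340 FPKM (-1.54 ± 0.19, SE, adjusted p = 5.08e-06) and Saa4 136.8 against 311.6 FPKM (-1.17 ± 0.32, SE, adjusted p = 0.00528). Saa1 differed there by -1.96 ± 0.81 (SE, adjusted p = 0.0493), a call lost with 17 of 24 libraries left out (up to 0.122, without high fat Jnk1Jnk2 replicate 2). Fitted on the groups compared alone, 3 of the list were lower in high fat Jnk2 livers, where 1.19% of loci were called. With the length trend removed, 1 of the list was called higher in high fat Jnk1Jnk2 livers, where 36.7% of loci were called. With diet in control livers 10 rose and 2 fell, where 16.3% of loci were called and 10.1% were higher, led by Saa4 (2.29 ± 0.32, SE, adjusted p = 0.000118), Serpina3n (1.25 ± 0.19, SE, adjusted p = 0.000222) and Lrg1 (1.19 ± 0.15, SE, adjusted p = 4.09e-05). The interaction of diet with Jnk2 was called below 0 at 14 of the 32 and above 0 at 0, where 9.52% of loci were called and 3.33% were called below 0.

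Markers of macrophages and Kupffer cells were read beside the rise with diet. The sum of 11 such markers was 357.7 to 477.7 FPKM in high fat Jnk1Jnk2 livers, 237.6 to 333.9 FPKM in Jnk2 livers, 209.2 to 336.3 FPKM in Jnk1 livers and 252.1 to 294.0 FPKM in control livers, against 119.1 to 228.0 FPKM over the 12 chow libraries. None of the 11 was at 0 in all 3 libraries of a group, and 6 of 11 were called higher by diet in control livers, as were 10.1% of all loci. By diet 4 were higher in Jnk1 livers, 7 in Jnk2 livers and 8 in Jnk1Jnk2 livers, where 1 was lower. There 15%, 26% and 56.9% of all loci were called in either direction. Against high fat control livers, 4 were higher and 1 lower in high fat Jnk1Jnk2 livers (51.2% of loci called). In high fat Jnk2 livers 1 was higher (12.4% of loci called), and in high fat Jnk1 livers 0 were called (0.227%). The part of these cells in the changes of the members was not tested.

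The genes whose pattern lay nearest to each member over the 24 libraries were found for the 6 members with an SD of at least 0.5 on the log2 scale, by the mean absolute difference of log2(FPKM + 1) centred on each locus. Candidates were the tested loci other than the 10 members. Orm2 was nearest to Saa1 (0.43), Saa2 (0.68) and Mug-ps1 (0.80). Steap4 was nearest to Saa4 (0.19), Slc13a3 (0.34) and Themis (0.36). Itih4 was nearest to the locus of C4a and C4b (0.20), Herc6 (0.20) and Prlr (0.20). For Lcn2 the nearest were Prtn3 (0.64), a protease gene of myeloid cells, Cxcl1 (0.74), a neutrophil-attracting chemokine, and Slc13a3 (0.76). Several of the nearest loci had low levels, such as Prtn3 at a mean of 3.118 FPKM, Herc6 at 2.44 FPKM and Themis at 1.706 FPKM. Orm1 was nearest to Tifa (0.27), Ambp (0.27) and Cpb2 (0.28), and Orm3 to Adh4 (0.34), Serpina12 (0.37) and Nit2 (0.37). Among members themselves, Hpx lay 0.25 from Orm1 and Hp 0.23 from Itih4. Orm1 and Orm2, the most alike in sequence, lay 0.77 apart. The measure also grows where spreads are unequal, and the SD was 0.511 for Orm1 and 1.285 for Orm2.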

How the data were processed

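Liver RNA of 24 libraries was grouped by title into 8 groups of 3. Per the labels' protocols, RNA was isolated with the RNeasy kit. Per the submitters' processing notes, TopHat, Cufflinks and Cuffdiff were used on mm10, while their versions, and how reads matching several loci were divided, are not given in the sources used here. Per locus, the authors deposited FPKM, which hold no read totals: count tests were not applied and absolute depth is unknown. Coordinates are given counted from 1, because 11142 of 20643 named loci began 1 base before their RefSeq start in the file.

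Values were taken to log2(FPKM + 1), and group means of the 24 libraries were estimated together by limma-trend (version 3.58.1 under R 4.3.3; 16 residual degrees of freedom) at the 10562 loci whose mean reached 1 FPKM. Fold changes on this scale understate those of low genes. A change was called at p under 0.05 after Benjamini-Hochberg adjustment, made separately for 15 contrasts, and 1 further contrast, high fat Jnk2 against high fat Jnk1, was added after seeing the data. An exact test of 3 against 3 libraries cannot give p under 0.1, so none was used. The members and lists were chosen with earlier results of these data known. Named are all members, up to 4 called genes per list with the largest change, and the 3 loci most like a member. Not all genes that the rule names are printed. Alternatives were other pseudocounts, no filter, size factors, quantile normalization, array weights, failed zeros as missing, removal of the length trend (loess, span 0.5, lengths from GENCODE vM21 for 96.6% of loci), a replicate block, only the groups compared, each library left out, the Orm copies summed and, added later, removal of length and GC trends. The fit was tested on simulated data. Same-numbered libraries did not deviate together at all 3 numbers in any comparison (correlation over 0.1 each), so numbers were not taken as pairs. Tables, sequences and plots were handled with Biopython 1.88, matplotlib 3.10.9, pandas 2.3.3 and numpy 2.4.6 in Python 3.11.15.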

Additional observations from a re-analysis of the deposited data

Results flagged for a closer look

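The difference between diets was not the same in knockout and control livers at 12 pairs of gene and genotype, by a test of the difference itself (the interaction term of the limma fit, adjusted over all loci). For Jnk2 livers the high fat minus chow difference was below that of control livers by -1.65 for Orm1, -2.29 for Orm3, -3.21 for Lcn2, -0.996 for Hp, -1.97 for Steap4, -1.33 for Itih4, -0.98 for Fgb and -0.996 for Fgg on the log2(FPKM + 1) scale. For Jnk1Jnk2 livers it was below by -1.70 for Steap4, -1.09 for Itih4, -0.89 for Fgb and -0.73 for Fgg. With each library left out in turn, Orm1, Steap4, Itih4, Fgb and Fgg kept their call for Jnk2, and Steap4, Itih4 and Fgb for Jnk1Jnk2.

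The other calls were lost by single omissions. For Jnk2, Lcn2 lost its call without chow Jnk2 replicate 1 (-2.31, adjusted p = 0.0758) or 2 (0.057), chow control replicate 1 (0.0747) or 3 (0.0807), high fat Jnk2 replicate 2 (0.064) or 3 (0.0569) and high fat control replicate 1 (0.0604) or 2 (0.0775). Orm3 lost it without chow Jnk2 replicate 1 (-1.89, 0.0808) or 2 (0.0501), chow control replicate 2 (0.0517) or 3 (0.0812), high fat Jnk2 replicate 3 (-1.52, 0.0504) or high fat control replicate 2 (0.0996). Hp lost it without chow Jnk2 replicate 1 (-0.81, 0.0602) or 2 (0.0506), chow control replicate 1 (0.063) or high fat Jnk2 replicate 3 (0.0547). For Jnk1Jnk2, Fgg lost it without chow Jnk1Jnk2 replicate 1 (0.0528).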

How the results depend on the processing

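Of 60 called changes of members, 26 kept their call under every alternative tried, and over all alternatives 1890 of 2113 values kept direction and call, 222 lost the call and 1 changed sign. That 1 was Hp by diet in Jnk1Jnk2 livers, -0.034 with length and GC trends removed (adjusted p = 0.891). Counts of members called that moved by over 1.5 times were as follows. The share of all loci called under the same setting is in parentheses, except with a library left out. With array weights 1 was called in chow Jnk2 against control (4.41%), 2 in high fat Jnk1 against control (6.78%) and 1 in high fat Jnk1Jnk2 against Jnk2 (46.1%). With only the groups compared, 4 were called in high fat Jnk2 against control (1.19%), 3 by diet in Jnk1 (8.95%) and 1 by diet in Jnk2 (16%). Such fits also called 1 in high fat Jnk1Jnk2 against Jnk2 (29.1%), 5 in the Jnk2 interaction (6.2%) and 3 in high fat Jnk2 against Jnk1 (5.17%). With the length trend removed, 10 were called in high fat Jnk1Jnk2 against control (36.7%) and 0 against Jnk2 (28.6%). With length and GC trends removed, 10 were called against control (36.8%), 0 against Jnk2 (29.7%) and 2 by diet in Jnk1Jnk2 (43.8%). With no filter 2 were called by diet in Jnk1 (7.73%) and 1 in high fat Jnk1Jnk2 against Jnk2 (26%). That setting also called 5 in the Jnk2 interaction (3.73%) and 3 in high fat Jnk2 against Jnk1 (6.83%). With each library left out, counts ranged from 2 to 6 by diet in Jnk1, 1 to 5 by diet in Jnk2, 2 to 4 by diet in Jnk1Jnk2, 1 to 3 in high fat Jnk1Jnk2 against Jnk2, 5 to 8 in the Jnk2 interaction, 2 to 7 in high fat Jnk2 against Jnk1, 7 to 10 in high fat Jnk2 against control and 4 to 7 in high fat Jnk1Jnk2 against control. The cause of these moves was not tested. Fits on part of the data also have fewer libraries and residual degrees of freedom. With the replicate number as a block, 59 of 60 calls held, and Fgb by diet in Jnk1 livers had adjusted p = 0.05. In that fit 10 members were called in high fat Jnk2 against control, where 12% of loci were called. The limits are 3 libraries per group, an unknown absolute depth, and reads common to the Orm copies.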

Other observations

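Genes of the pathways that reach the acute phase genes were read from a list of 23 cytokine receptors and transcription factors, of which 22 were tested. Jnk1Jnk2 livers against control livers of the high fat diet had 13 lower and 1 higher, where 51.2% of all loci were called and 31.6% were lower. The interleukin 6 receptor Il6ra had 4.51 against 12.9 FPKM (-1.30 ± 0.24, SE, adjusted p = 0.000182 in limma), the glucocorticoid receptor Nr3c1 5.92 against 13.7 FPKM (-1.10 ± 0.13, SE, adjusted p = 2.4e-06) and Il6st, the shared signal chain of that receptor family, 9.41 against 19.2 FPKM (-0.96 ± 0.13, SE, adjusted p = 9.33e-06). With the length trend removed these differences were -0.70, -0.62 and -0.36. Jnk2 livers had 3 lower and 1 higher, where 12.4% of loci were called and 4.96% were lower. In Jnk1 livers 0 of 22 passed the limma test, where 0.227% of loci were called, and 3 of the 22 had an unadjusted p under 0.05. In Jnk2 livers Stat3 had 22.2 against 32.1 FPKM (-0.51 ± 0.16, SE, adjusted p = 0.0424), a call lost without high fat Jnk2 replicate 1 (0.124) or 2 (0.146), high fat control replicate 1 (0.12) or 3 (0.143) or chow control replicate 2 (0.0509). Creb3l3, a transcription factor of hepatocytes, was the 1 that rose in both, by 0.47 ± 0.07 in Jnk2 livers (SE, adjusted p = 0.000257), or 0.29 with length and GC trends removed.

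Of a list of 12 proteins that fall in the acute phase, 1 was higher in high fat Jnk2 livers than in high fat control livers, where 12.4% of loci were called. This was the retinol carrier Rbp4, with 3781 against 2849 FPKM (0.41 ± 0.11, SE, adjusted p = 0.0165), which was lost without high fat control replicate 1 (0.0823) and with no filter on low values (0.099). Jnk1Jnk2 livers of that diet had 4 higher and 1 lower, where 51.2% of loci were called. Among the 4 was Rbp4 (0.92 ± 0.11, SE, adjusted p = 2.62e-06, and 0.53 with the length trend removed).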
